A study of Mus musculus with 8 samples.

Results

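ESCs of the mouse line N33 grown in N2B27 medium with 2i (NB2i, 2 samples) were compared with the same line grown on feeders in serum (F, 2 samples). These are 4 of the 8 samples of the series. All 20278 genes of the deposited tables were considered, 15287 of them had enough counts to be tested, and 11682 of these reached 1 FPKM in both samples of a feeder-free serum culture on gelatin (G). The 2 samples of G took no part in the contrast, and the cut on them served to set aside genes that could come from feeder cells alone. N33 is labelled C57BL/6 (C57BL/6J in the study's methods), and a single line was sequenced, so that nothing here shows how another line would behave. F cultures stood on mouse embryonic fibroblasts (MEFs) stopped from dividing by mitomycin C, in knockout DMEM with 20% fetal bovine serum. NB2i cultures held neither serum nor feeders, stood on plates coated with poly-L-ornithine and laminin, and received the GSK3 inhibitor CHIR99021 at 3 µM and the MEK inhibitor PD0325901 at 1 µM. LIF at 1000 U/ml was present in every culture. Medium, serum, feeders, coating and inhibitors therefore changed together, and their parts cannot be told apart in this contrast. A further serum culture, on feeders with 2i (F2i, 2 samples), is given beside some genes for its levels. The sources used here give no inhibitor doses for F2i, so that its levels and those of NB2i are set side by side without knowing whether the doses matched. Before RNA was taken, ESCs on feeders were separated from them in repeated rounds by their weaker adherence.

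ESCs keep themselves undifferentiated through a small set of transcription factors that LIF sustains by way of STAT3. FGF made by the cells themselves drives the MEK and ERK kinases and pushes them towards differentiation, which PD0325901 blocks, while CHIR99021 stops GSK3 from degrading beta-catenin and so relieves repression by TCF proteins. Serum supplies BMP, lysophospholipids and growth factors, and feeders supply LIF, matrix and further signals. N2B27 is a serum-free medium in which cells make or take up lipids without the lipoproteins of serum.

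Libraries were of nearly equal depth, from 20129641 to 20664488 total expected counts over the 8 samples, and the spread between replicates exceeded Poisson counting error, since their chi-square divided by its degrees of freedom was 2.383 for F and 1.885 for NB2i. The RNA held the markers of ESCs in both groups. Pou5f1, the defining transcription factor of pluripotency, had 583.09 and 595.15 FPKM in F and 765.13 and 735.75 FPKM in NB2i. FPKM is the number of mapped fragments scaled for transcript length and for depth, as deposited. With the adjusted p below 0.05 and at least a 2-fold difference required, 1535 genes (10% of those tested) were higher and 2683 (17.6%) were lower in NB2i than in F by edgeR's quasi-likelihood test. Such genes are called higher or lower below, and with the fold threshold left out 11234 genes (73.5%) passed the adjusted p. Permuting 2 samples against 2 exactly allows no p below 0.3333, and every adjusted p therefore rests on the spread that the model shares across genes. Nothing beyond the submitters' term biological duplicates says that replicates were separate cultures. In bulk RNA, fewer cells of a kind and less RNA in each cell look alike.

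Among the 11682 genes with at least 1 FPKM in both G samples, 797 (6.82%) were higher and 1350 (11.6%) were lower in NB2i. Among the other 3605 genes tested, 738 (20.5%) were higher and 1333 (37.0%) were lower. The median log2 fold change was 0.026 in the first class and −0.409 in the second. Of the genes called, 322 in the first class and 593 in the second fell at least 8-fold, against 23 and 178 that rose as much. Over all genes called, 915 fell and 201 rose at least 8-fold. Of the genes tested, 189 had no count in either NB2i sample, and 10 of these passed the cut on G, whereas 13 had none in either F sample. Counts in any 2 of the 8 samples admitted a gene to the test, those of F2i and G among them, so that these numbers are a description. With only the F and NB2i samples used, 14799 genes were tested, 1528 of them higher and 2504 lower. Close to the cut, 177 genes had a lowest G value from 0.9 to 1 FPKM and 84 of them were called, and 147 had one from 1 to 1.1 FPKM and 64 of them were called.

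**Figure D1:**
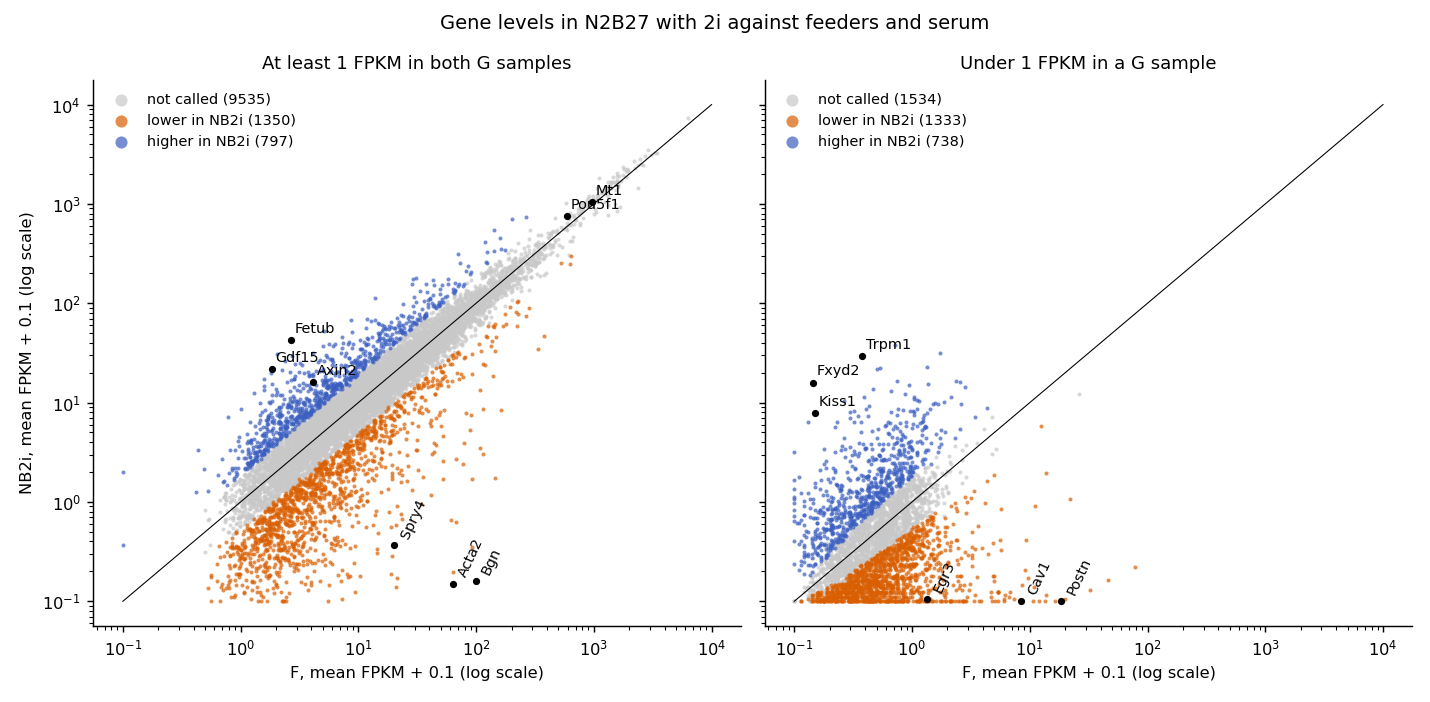
Mean FPKM + 0.1 in NB2i (vertical, log scale) against that in F (horizontal, log scale) for each gene tested, with 11682 genes of at least 1 FPKM in both G samples on the left and 3605 others on the right. The line marks equal levels, colours mark the genes called and black points are genes given by name; on the left 797 lie above and 1350 below, and on the right 738 lie above and 1333 below, many of the latter at the bottom edge with almost no RNA in NB2i.

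Genes of fibroblasts were among the deepest falls. Of 38 fibroblast markers, 36 were lower (94.7%, against 17.6% of all genes) and 2 were higher (5.26%, against 10%). The median log2 fold change was −5.64. It was −5.09 with the 8 markers without a count in NB2i set to the bound that 3 counts over both samples give. Of the markers, 23 were under 1 FPKM in a G sample. Such markers could have enough counts to be tested through F and F2i alone, so that the number lower is a description. Postn (Entrez ID 50706, periostin of the matrix, GRCm38.p6 chr3:54359267-54391041) had 17.48 and 18.83 FPKM in F, 55.03 and 52.71 FPKM in F2i and no count in NB2i, at least 767-fold lower than in F. Cav1, the coat protein of caveolae, had 8.22 and 8.56 FPKM in F and no count in NB2i, at least 288-fold lower. Both were under 0.5 FPKM in G. Lox, which crosslinks collagen, had 18.8 and 21.15 FPKM in F and a single count in NB2i, a ratio of 3840 with an exact 95% interval from 689 to 152000 for counting error.

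The 23 markers under 1 FPKM in a G sample summed to 193 and 201.8 FPKM in F, 467.2 and 457.6 FPKM in F2i, 5.24 and 5.13 FPKM in G, and 2.4 and 2.15 FPKM in NB2i. The F libraries thus held RNA of fibroblast genes after the separation by adherence. NB2i held less of it than G, and 18 of the 23 were under 0.1 FPKM in both NB2i samples. Whether this RNA came from feeder cells or from ESCs was not tested. The cut on G did not remove fibroblast markers in full. It kept 15 of the 38 markers, 13 of them lower and 2 higher, where 11.6% of all genes above the cut were lower and 6.82% higher. These 15 summed to 1101 and 1111 FPKM in F, 404.4 and 384.9 FPKM in G, and 945.6 and 923.7 FPKM in NB2i. Bgn, the matrix proteoglycan biglycan, passed the cut with 1.85 and 2.13 FPKM in G but had 97.48 and 100.55 FPKM in F and 0.08 and 0.04 FPKM in NB2i, a log2 fold change of −10.59 (SE, the standard error, 0.12 and adjusted p = 1.5e-24). Fn1 and Sparc, matrix glycoproteins that ESCs make themselves, went the other way. Sparc had 159.62 and 161.45 FPKM in F, 99.21 and 95.1 FPKM in G, and 456.42 and 456.7 FPKM in NB2i, a log2 fold change of 1.55 (SE 0.041, adjusted p = 1.4e-18). The part of fibroblast RNA in the gene lists that follow was not tested, and G levels are given beside many genes.

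**Figure D2:**
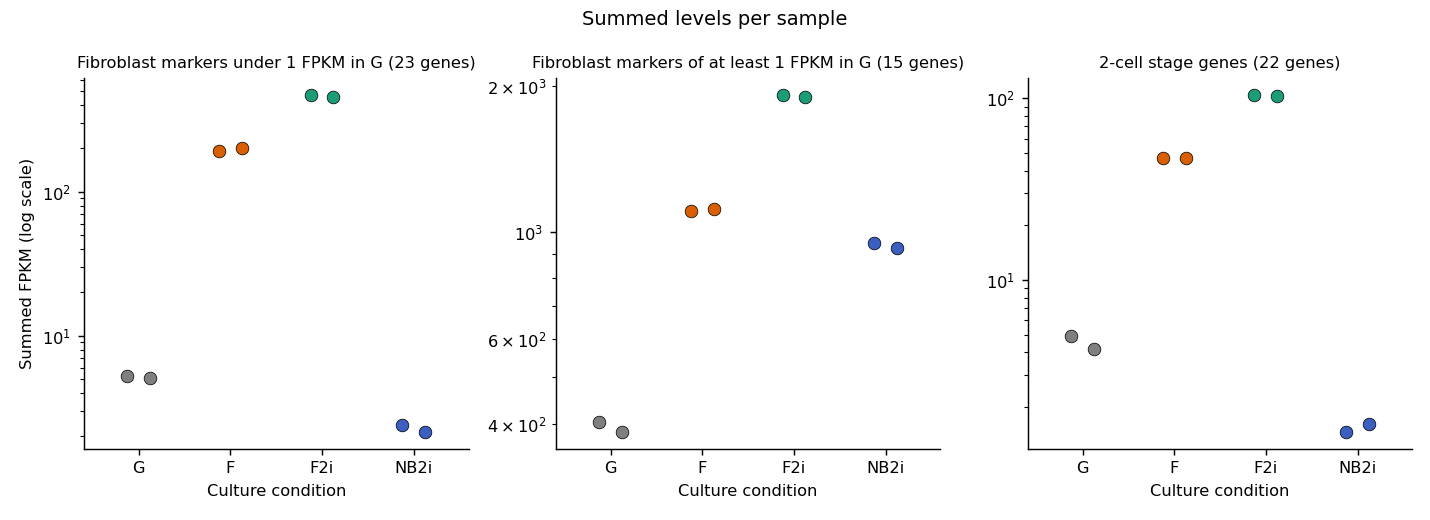
Summed FPKM (log scale) in each sample of the 4 culture conditions for 23 fibroblast markers under 1 FPKM in a G sample, 15 fibroblast markers of at least 1 FPKM in both, and 22 genes of the 2-cell stage. Each point is a sample; the first and last sums are high in F and F2i and lowest in NB2i, and the middle sum is lowest in G.

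Genes that ERK switches on were lower in NB2i. Of 27 genes of ERK feedback and early response tested, 22 were lower and none was higher (81.5% lower against 17.6% of all genes), with a median log2 fold change of −2.26. Among the 22 members with at least 1 FPKM in both G samples, 17 were lower and none was higher, against 11.6% lower in that class. Spry4, an inhibitor of receptor tyrosine kinase signalling that ERK induces, had 20.34 and 19.78 FPKM in F, 20.52 and 21.2 FPKM in G, 0.54 and 0.74 FPKM in F2i, and 0.23 and 0.3 FPKM in NB2i. Its level was thus alike in F and G and low in F2i and NB2i, and its log2 fold change was −6.19 (SE 0.109, adjusted p = 1.1e-21). Dusp6, the phosphatase that removes the activating phosphates of ERK, had 35.9 and 34.82 FPKM in F, 34.52 and 33.92 FPKM in G, and 1.76 and 1.64 FPKM in NB2i (log2 fold change −4.33, SE 0.078, adjusted p = 1.4e-21). Etv4, an ETS factor downstream of FGF, had 53.46 and 51.29 FPKM in F, 52.82 and 52.2 FPKM in G, and 1.63 and 1.55 FPKM in NB2i (log2 fold change −5.00). For these genes G and F lay close together. The parts of the inhibitors and of fibroblast RNA in their fall were not tested.

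Other members of the list had far more RNA in F than in G. Egr1, an immediate early zinc finger factor, had 90.37 and 94.08 FPKM in F, 8.58 and 8.36 FPKM in G, 4 and 3.54 FPKM in F2i, and 1.58 and 1.62 FPKM in NB2i (log2 fold change −5.80, SE 0.069, adjusted p = 2.2e-24). Fosb, a subunit of the AP-1 factor, had 78.84 and 76.94 FPKM in F, 0.47 and 0.65 FPKM in G, 22.58 and 22.79 FPKM in F2i, and 0.14 and 0.1 FPKM in NB2i (log2 fold change −9.27). Fibroblast sums were also higher in F than in G, and their part in the fall of these genes was not tested. The members not called were Dusp14, Spry2, Spred3, Etv5 and Ccnd1. Ccnd1, the D-type cyclin that ERK sustains in many cells, had 44.7 and 47.46 FPKM in F and 34.54 and 32.77 FPKM in NB2i, and its log2 fold change of −0.41 was under the fold threshold. Etv5, a close relative of Etv4, had 96.71 and 97.35 FPKM in F and 56.35 and 57.01 FPKM in NB2i.

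Targets of SRF and YAP, which report tension on the actin cytoskeleton and the lysophospholipids of serum, were also lower. Of 24 tested, 17 were lower (70.8%, against 17.6% of all genes) and none was higher. Of the 21 with at least 1 FPKM in both G samples, 14 were lower, against 11.6% lower in that class. Acta2, smooth muscle actin, had 62.38 and 64.05 FPKM in F, 4.89 and 4.96 FPKM in G, and 0.06 and 0.04 FPKM in NB2i (log2 fold change −10.28, SE 0.124, adjusted p = 2.4e-24). Tagln, an actin-binding protein, had 93.57 and 91.39 FPKM in F, 30.26 and 29.11 FPKM in G, and 0.32 and 0.19 FPKM in NB2i (log2 fold change −8.49). Cnn1, the calponin that binds actin, had 5.17 and 5.69 FPKM in F, 3.52 and 3.43 FPKM in G and no count in NB2i, at least 144-fold lower than in F. Members that differed little between F and G fell as well: Tpm1, a tropomyosin, had 148.18 and 143.45 FPKM in F, 161.88 and 158.13 FPKM in G, and 32.07 and 33.84 FPKM in NB2i (log2 fold change −2.16). The cytoplasmic actins did not reach the fold threshold, with 1334.85 and 1304.34 FPKM of Actb in F and 983.23 and 947.45 FPKM in NB2i.

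SRF binds the CArG box, and the letters were looked for in promoters, taken as 250 bases before to 50 after the start of a gene in RefSeq's annotation of GRCm38.p6. Of 20 members with a promoter in that table, 6 (30.0%) held a CArG box, against 1.81% of 27025 genes. Of the 20, 14 were lower in NB2i, and 4 of these 14 held the box, a share near that of the 20. Myl9, the regulatory light chain of myosin, was the member of largest change that held one. It had 21.08 and 21.3 FPKM in F, 10.61 and 10.47 FPKM in G, and 0.09 and 0.05 FPKM in NB2i (log2 fold change −8.12). Its promoter (chr2:156775214-156775513, plus strand, 5′ to 3′) has the box in capitals, its first base 161 bases before the start. The match is a description of these letters and not a site of binding.
Myl9: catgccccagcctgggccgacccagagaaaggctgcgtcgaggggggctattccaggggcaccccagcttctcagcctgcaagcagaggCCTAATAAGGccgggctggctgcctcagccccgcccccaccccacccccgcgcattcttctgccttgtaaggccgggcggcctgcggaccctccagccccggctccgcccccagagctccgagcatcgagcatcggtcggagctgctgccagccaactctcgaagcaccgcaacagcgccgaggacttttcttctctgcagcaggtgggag

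Beta-catenin targets moved in both directions. Of 20 tested, 6 were higher (30.0%, against 10% of all genes) and 8 were lower (40.0%, against 17.6%). The 6 were Sp5, Notum, Axin2, Tnfrsf19, Sp8 and Cdx1. Axin2, the scaffold of the complex that destroys beta-catenin and its best known target, had 3.98 and 4.08 FPKM in F, 2.32 and 2.46 FPKM in G, 12.36 and 13.16 FPKM in F2i, and 16.19 and 16.04 FPKM in NB2i (log2 fold change 2.04, SE 0.066, adjusted p = 4.0e-17). Notum, which inactivates Wnt ligands by removing their lipid, had 3.84 and 3.62 FPKM in F and 19.63 and 17.74 FPKM in NB2i (log2 fold change 2.37). The 8 lower were Bmp4, Ccnd2, Lef1, Lgr5, Dkk1, Nkd1, Nkd2 and Apcdd1. Lef1, itself a partner of beta-catenin on DNA, had 5.85 and 5.66 FPKM in F, 3.09 and 3.35 FPKM in F2i, and 0.29 and 0.19 FPKM in NB2i (log2 fold change −4.47, SE 0.151, adjusted p = 8.2e-17). Ccnd2, a D-type cyclin, had 14.37 and 14.17 FPKM in F, 1.32 and 1.24 FPKM in G, and 0.19 and 0.28 FPKM in NB2i, so that its level in F stood far above that in the culture without feeders.

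The core of the TCF motif, CTTTGAT or its complement, was in the promoters of 2 of 14 members (14.3%), against 4.29% of all genes, and both, Sp5 and Tnfrsf19, were higher in NB2i. None of the 5 lower members with a promoter in the table held it. With 2 matches among 14 promoters, these numbers cannot tell whether the motif goes with the direction of change. The matches are a description of letters and not sites of binding. Sp5, a zinc finger repressor, had 1.2 and 1.02 FPKM in F, 0.44 and 0.42 FPKM in G, 3.5 and 3.93 FPKM in F2i, and 6.44 and 6.18 FPKM in NB2i (log2 fold change 2.55, SE 0.137, adjusted p = 3.0e-13). Its promoter (chr2:70474673-70474972, plus strand) is shown as that of the member with the largest rise, with the motif in capitals starting 104 bases before the start of the gene.
Sp5: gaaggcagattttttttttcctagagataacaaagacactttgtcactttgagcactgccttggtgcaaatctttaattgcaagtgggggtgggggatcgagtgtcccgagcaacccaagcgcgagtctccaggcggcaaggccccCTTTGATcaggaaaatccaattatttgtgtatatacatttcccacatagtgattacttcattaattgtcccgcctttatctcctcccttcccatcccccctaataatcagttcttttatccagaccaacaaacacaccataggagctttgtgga

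Of 21 BMP signalling genes, 9 were lower (42.9%) and 3 were higher (14.3%), beside 17.6% and 10% of all genes. Id1 and Id3, inhibitors of basic helix-loop-helix factors that BMP and serum induce, both fell. Id1 had 11.4 and 11.99 FPKM in F, 23.45 and 22.92 FPKM in G, 5.55 and 6.93 FPKM in F2i, and 0.79 and 1.07 FPKM in NB2i (log2 fold change −3.60, SE 0.18, adjusted p = 7.7e-14). Id3 had 32.57 and 31.35 FPKM in F, 13.84 and 12.18 FPKM in G, 39.58 and 40.46 FPKM in F2i, and 2.31 and 1.65 FPKM in NB2i (log2 fold change −3.96). In F2i, Id3 thus lay above F and Id1 below it. The parts of serum, feeders and inhibitors in these falls were not tested. The ligand gene Bmp4 had 7.69 and 8.04 FPKM in F, 10.82 and 9.28 FPKM in G, 1.06 and 1.45 FPKM in F2i, and 0.08 and 0.1 FPKM in NB2i (log2 fold change −6.48, SE 0.237, adjusted p = 3.3e-16). The BMP antagonist gene Grem1 had 2.24 and 1.88 FPKM in F, 0.03 and 0 FPKM in G and no count in NB2i, at least 44.7-fold lower than in F. Bmp7, Smad9 and Id4 were higher. Id2 fell as well, from 25.28 and 23.79 FPKM to 5.81 and 6.11 FPKM (log2 fold change −2.0), whereas Id4 had 6 and 5.86 FPKM in F and 14.31 and 14.82 FPKM in NB2i (log2 fold change 1.34).

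Of 18 genes of Nodal and Lefty signalling, 5 were lower (27.8%, against 17.6% of all genes) and 2 were higher (11.1%, near the 10% of all genes). The secreted Nodal inhibitors split: Lefty1 had 90.21 and 90.29 FPKM in F and 7.36 and 7.27 FPKM in NB2i (log2 fold change −3.58, SE 0.059, adjusted p = 4.8e-22), whereas Lefty2 had 39.42 and 38.84 FPKM in F and 107.21 and 107.17 FPKM in NB2i (log2 fold change 1.5, SE 0.041, adjusted p = 2.6e-18). Nodal itself, at 32.69 and 32.47 FPKM in F and 38.51 and 39.18 FPKM in NB2i, was under the fold threshold. Fst, the activin antagonist follistatin, had 2.33 and 2.69 FPKM in F and 9.7 and 9.49 FPKM in NB2i. The genes of LIF and STAT3, a signal present in both cultures, gave 1 higher and 3 lower of 19, a share lower (15.8%) near the 17.6% of all genes. Socs3, the feedback inhibitor that STAT3 induces, had 53.04 and 55.65 FPKM in F and 48.77 and 46.71 FPKM in NB2i (log2 fold change −0.14). The 3 lower, Junb, Gbx2 and Myc, had levels in F2i between those of F and NB2i. Myc, the growth factor-induced oncogene, had 7.09 and 7.29 FPKM in F, 1.8 and 2.21 FPKM in F2i, and 0.95 and 0.89 FPKM in NB2i (log2 fold change −2.92, SE 0.134, adjusted p = 1.8e-14).

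**Figure D3:**
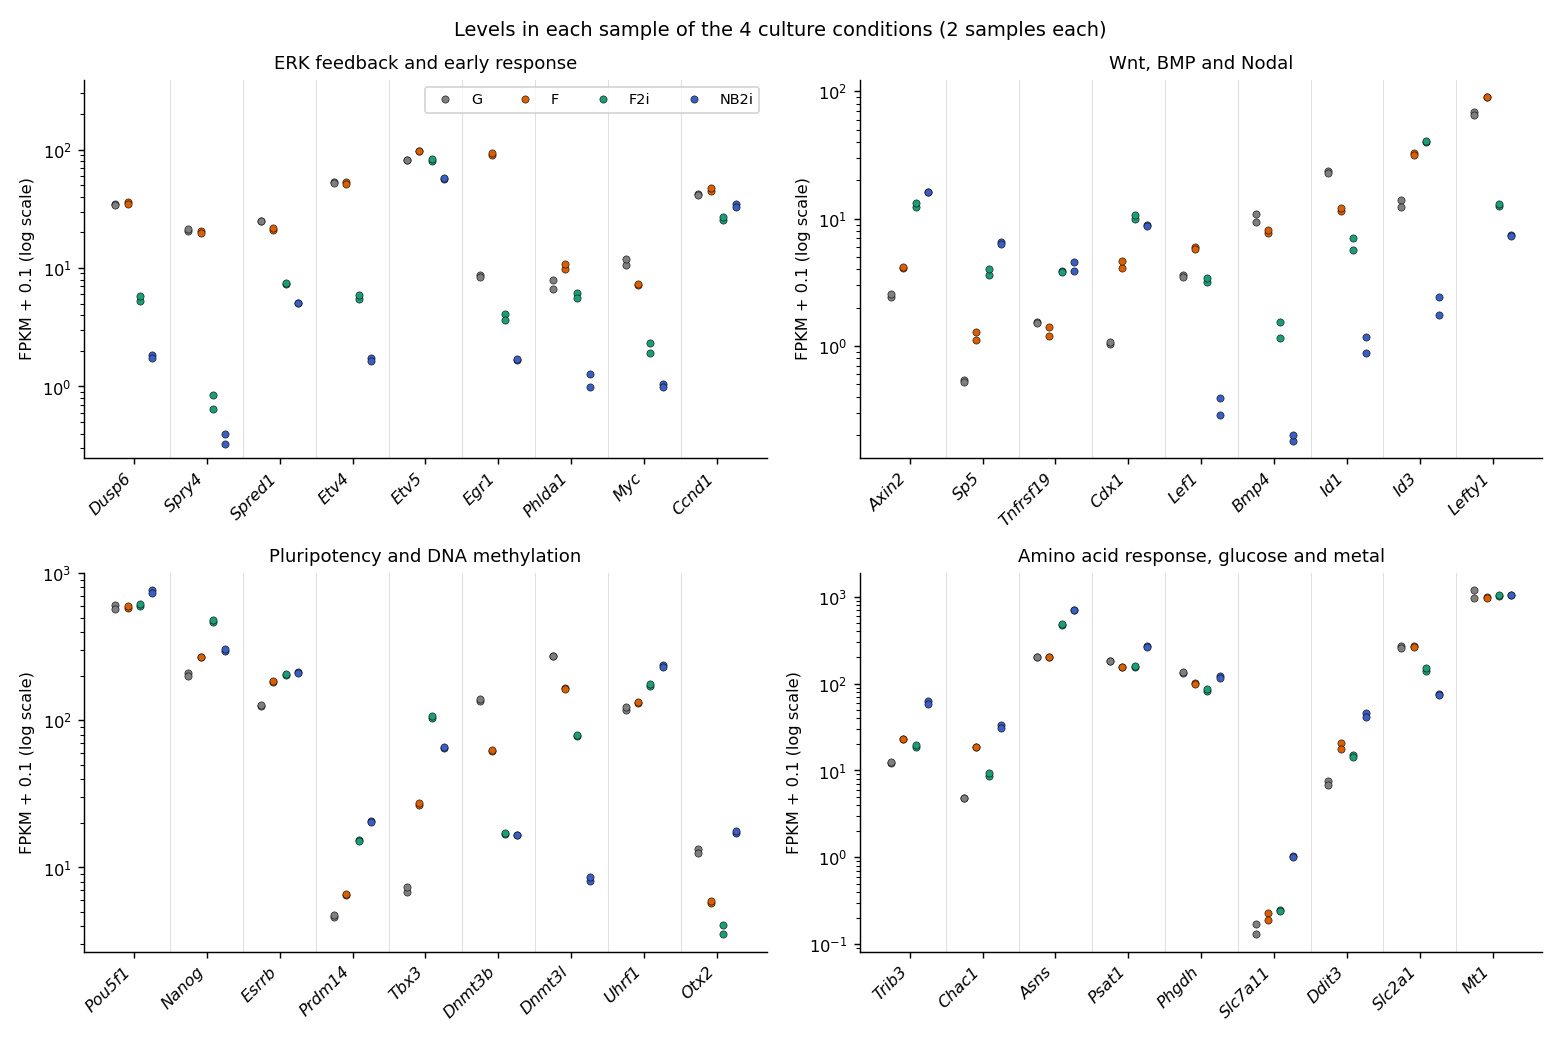
FPKM + 0.1 (log scale) of 36 genes in each of the 8 samples, coloured by culture condition, in panels for ERK feedback, for Wnt, BMP and Nodal, for pluripotency and DNA methylation, and for amino acid response, glucose and metal. Replicates lie close together; Spry4, Dusp6 and Etv4 are alike in G and F and low in F2i and NB2i, Id1 and Id3 are lowest in NB2i, and Pou5f1 and Mt1 differ little among the 4 conditions.

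Few naive pluripotency factors passed the fold threshold. All 23 of the list passed the cut on G, and 5 were higher (21.7%, against 10% of all genes) and 1 was lower (4.35%), with a median log2 fold change of 0.39. Tfcp2l1, a STAT3-driven self-renewal factor, had 42.58 and 43.33 FPKM in F, 24.2 and 26.69 FPKM in G, 135.26 and 121.49 FPKM in F2i, and 170.41 and 174.95 FPKM in NB2i (log2 fold change 2.05, SE 0.053, adjusted p = 7.3e-19). Prdm14, a repressor of FGF signalling and of de novo methylation, had 6.37 and 6.51 FPKM in F and 20.54 and 20.13 FPKM in NB2i (log2 fold change 1.70). Nr5a2, Tbx3 and Fbxo15 were also higher. Tbx3 had 26.56 and 27.31 FPKM in F, 103.53 and 106.16 FPKM in F2i, and 65.02 and 65.93 FPKM in NB2i, so that its highest level was in F2i.

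Several core factors moved by less than the fold threshold, although every member of the list passed the adjusted p. Nanog had 271.07 and 269.25 FPKM in F and 294.76 and 303.72 FPKM in NB2i (log2 fold change 0.19), and Sox2 had 230.93 and 245.58 FPKM in F and 214.98 and 215.39 FPKM in NB2i (log2 fold change −0.10). Klf2 and Klf4, Krüppel-like factors of the naive network, lay below F with log2 fold changes of −0.52 and −0.41. For Klf4 the values were 199.32 and 200.22 FPKM in F, 54.23 and 54.71 FPKM in G, and 146.25 and 144.41 FPKM in NB2i, so that NB2i stood between the serum cultures. The single call in the lower direction was Utf1, a chromatin factor of pluripotent cells, with 373.62 and 385.51 FPKM in F, 79.38 and 83.72 FPKM in F2i, and 47.55 and 46.65 FPKM in NB2i (log2 fold change −2.97, SE 0.052, adjusted p = 1.0e-21).

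Of 21 genes of the formative and primed epiblast tested, 14 were lower (66.7%, against 17.6% of all genes) and 1 was higher, with a median log2 fold change of −1.89. Sox3, a SOX factor of the epiblast and neural plate, had 2.51 and 2.57 FPKM in F and 0.14 and 0.12 FPKM in NB2i (log2 fold change −4.23). Krt18, a simple keratin, had 37.17 and 36.69 FPKM in F, 78.15 and 74.28 FPKM in G, and 10.53 and 10.74 FPKM in NB2i (log2 fold change −1.75). The exception was Otx2, a homeobox factor that directs the exit from naive pluripotency. It had 5.6 and 5.86 FPKM in F, 13.29 and 12.44 FPKM in G, 3.41 and 3.98 FPKM in F2i, and 16.96 and 17.51 FPKM in NB2i (log2 fold change 1.63, SE 0.078, adjusted p = 3.2e-14). Among the cultures its level was lowest in F2i and highest in NB2i.

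The de novo DNA methyltransferases fell. Of 20 genes that write, read or remove DNA methylation, 7 were lower (35.0%, against 17.6% of all genes) and none was higher, although 6 passed the adjusted p upwards with changes under the fold threshold. Dnmt3l, the cofactor of the de novo enzymes, had 165.97 and 162.12 FPKM in F, 273.99 and 272.34 FPKM in G, 77.59 and 79.58 FPKM in F2i, and 8.01 and 8.55 FPKM in NB2i (log2 fold change −4.27, SE 0.056, adjusted p = 8.8e-24). Dnmt3a had 41.42 and 43.17 FPKM in F, 7.91 and 7.75 FPKM in F2i, and 2.96 and 2.9 FPKM in NB2i (log2 fold change −3.72). Dnmt3b had 62.23 and 62.42 FPKM in F, 134.64 and 140.36 FPKM in G, 16.84 and 17.18 FPKM in F2i, and 16.5 and 16.57 FPKM in NB2i (log2 fold change −1.89), so that F2i and NB2i were alike for Dnmt3b but far apart for Dnmt3l. Dnmt1, which copies methylation after replication, had 70.79 and 71.78 FPKM in F and 87.89 and 84.7 FPKM in NB2i. Uhrf1, which brings Dnmt1 to hemimethylated DNA, had 130.9 and 133.28 FPKM in F and 236.6 and 229.69 FPKM in NB2i (log2 fold change 0.87, under the fold threshold). Gadd45a, Gadd45b and Gadd45g, stress genes also linked to demethylation, were lower.

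Germline genes that promoter methylation is known to silence fell in NB2i more often than all genes. Of 25 tested, 14 were lower (56.0%) and 1 was higher (4.0%), with a median log2 fold change of −1.04. Ddx4, the germ cell RNA helicase Vasa, had 14.67 and 16.28 FPKM in F, 14.66 and 15.94 FPKM in G, 6.92 and 7.15 FPKM in F2i, and 2.19 and 2.16 FPKM in NB2i (log2 fold change −2.79, SE 0.091, adjusted p = 4.5e-17). Sycp1, of the synaptonemal complex, had 1.98 and 2.12 FPKM in F and 0.19 and 0.37 FPKM in NB2i (log2 fold change −2.82). Dazl, an RNA-binding protein of germ cells, had 4.41 and 4.7 FPKM in F, 14.9 and 14.59 FPKM in F2i, and 2.58 and 2.97 FPKM in NB2i. The single rise was that of Xlr3a, an X-linked gene of a cluster of near-identical copies, from 0.88 and 1.54 FPKM to 4.24 and 4.29 FPKM, and RSEM divides reads among such copies.

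Most genes of the 2-cell stage were close to absent from NB2i, where 20 of the 22 listed were under 0.1 FPKM in both samples. Their expression marks the rare ESCs that resemble the 2-cell embryo. Expected counts summed over the 5 members of the Zscan4 family were 1154 and 1208 in F, 2854 and 2851 in F2i, 55 and 44 in G, and 5 and 1 in NB2i (log2 fold change −8.53, SE 0.17, adjusted p = 9.3e-21). The family was summed because its members are near-identical in sequence. Zscan4f (Entrez ID 665902), the member with the highest FPKM in F, had 13.99 and 12.89 FPKM there and no count in NB2i, at least 326-fold lower. Summed Usp17l counts were 276.2 and 267.6 in F, 56.3 and 49.7 in G, and 29.5 and 38.7 in NB2i (log2 fold change −2.94), so that this family was not absent from NB2i. Tcstv1 and Tcstv3 together had 50.1 and 53.4 counts in F and 0 and 1 in NB2i, a ratio of 102 with an exact 95% interval from 17.9 to 4060. All 17 members that were tested were lower, but 16 of them were under 1 FPKM in a G sample and reached the count filter through F and F2i, so that this count is a description. Over all 22 members listed, levels summed to 46.84 and 46.69 FPKM in F and 1.46 and 1.61 FPKM in NB2i. Telomere genes gave no call in either direction among 21 tested, by edgeR, and 17 of them passed an adjusted p of 0.05 with smaller changes. Tert, the catalytic subunit of telomerase, had 5.75 and 5.79 FPKM in F and 6.77 and 7.31 FPKM in NB2i (log2 fold change 0.33).

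Of the 29 lists plotted, the one with the largest share higher was that of the amino acid and integrated stress response, which ATF4 directs when amino acids are scarce or eIF2 alpha is phosphorylated. Of 28 tested, 13 were higher (46.4%, against 10% of all genes) and 1 was lower, with a median log2 fold change of 0.97. Among the 25 with at least 1 FPKM in both G samples, 11 were higher and none was lower, against 6.82% higher in that class. Pck2, the mitochondrial phosphoenolpyruvate carboxykinase, had 13.7 and 15.19 FPKM in F, 14.99 and 14.85 FPKM in G, 21.51 and 21.5 FPKM in F2i, and 63.69 and 63.95 FPKM in NB2i (log2 fold change 2.19, SE 0.049, adjusted p = 7.7e-20). Nupr1, a stress-induced chromatin protein, had 38.23 and 37.39 FPKM in F and 157.3 and 152.85 FPKM in NB2i (log2 fold change 2.08). Cth, which makes cysteine from cystathionine, had 32.34 and 33.64 FPKM in F and 135.84 and 132.6 FPKM in NB2i (log2 fold change 2.07). Asns, asparagine synthetase, had 203.77 and 202.94 FPKM in F, 469.65 and 480.15 FPKM in F2i, and 701.17 and 699.39 FPKM in NB2i, the highest level of any member. Atf4 mRNA overlapped between the groups, at 302.84 and 300.78 FPKM in F and 290.89 and 306.65 FPKM in NB2i, while G had 130.5 and 127.87 FPKM. Atf3, an ATF4 target and immediate early gene, was the exception that fell, from 11.8 and 12.74 FPKM to 5.99 and 5.32 FPKM (log2 fold change −1.07). In G it had 1.01 and 0.91 FPKM, below both F and NB2i, and the part of fibroblast RNA in its fall was not tested.

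ATF4 with a C/EBP partner binds sequences that were searched as TGATGNAA on either strand. Of 25 members with a promoter in the table, 9 (36.0%) held the motif, against 4.51% of all genes, and 6 of the 12 higher members with a promoter did. This motif and CTTTGAT share the letters TGAT, so that a stretch could match both. Slc7a11, the cystine transporter, is shown because it had the largest rise of the members that hold the motif, although from a low level. It had 0.13 and 0.09 FPKM in F, 0.03 and 0.07 FPKM in G, 0.15 and 0.14 FPKM in F2i, and 0.93 and 0.92 FPKM in NB2i (log2 fold change 3.11, SE 0.207, adjusted p = 1.1e-11). Its promoter (chr3:50443564-50443863, minus strand) holds 2 matches in capitals, on opposite strands, that begin 66 and 47 bases before the start of the gene.
Slc7a11: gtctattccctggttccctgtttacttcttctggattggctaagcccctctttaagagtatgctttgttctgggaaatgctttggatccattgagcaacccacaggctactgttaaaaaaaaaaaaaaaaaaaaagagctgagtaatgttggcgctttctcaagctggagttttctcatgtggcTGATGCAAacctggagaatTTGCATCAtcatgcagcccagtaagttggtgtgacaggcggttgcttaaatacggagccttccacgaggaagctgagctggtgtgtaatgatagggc

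Lipid genes rose in part. Of 20 genes of fatty acid synthesis, 7 were higher (35.0%) and 1 was lower (5.0%), against 10% and 17.6% of all genes. Scd1 and Scd2, which put the double bond into saturated fatty acids, were the largest rises. Scd1 (Entrez ID 20249) had 29.83 and 31.16 FPKM in F, 23.29 and 24.35 FPKM in G, 56.43 and 56.64 FPKM in F2i, and 177.3 and 183.14 FPKM in NB2i (log2 fold change 2.61, SE 0.044, adjusted p = 7.2e-22). Fads1 and Fads2, desaturases of polyunsaturated chains, and Srebf1, which activates the pathway, were higher too. Fasn, the synthase of palmitate, had 70.07 and 72.31 FPKM in F and 67.95 and 65.27 FPKM in NB2i (log2 fold change −0.05, adjusted p = 0.29). Of 18 genes of lipid uptake and storage, 4 were higher and 4 were lower (22.2% each), the latter share near that of all genes. Lpl, which frees fatty acids from lipoproteins, had 1.49 and 1.83 FPKM in F and 9.55 and 9.86 FPKM in NB2i (log2 fold change 2.58), and Lrp2, the endocytic receptor megalin, had 3.61 and 3.98 FPKM in F and 0.27 and 0.22 FPKM in NB2i (log2 fold change −3.92).

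Of 24 sterol genes, 4 were higher (16.7%, against 10% of all genes) and none was lower, and 19 passed the adjusted p upwards against 4 downwards, with a median log2 fold change of 0.47. Tm7sf2, Ebp and Msmo1, enzymes of the pathway, were among them. Hmgcs1, which starts the mevalonate pathway, had 140.71 and 146.83 FPKM in F and 88.46 and 90.56 FPKM in NB2i (log2 fold change −0.64), opposite in sign to most of the list and under the fold threshold. The SREBP motif TCACNCCA was in 3 of 16 promoters (18.8%), against 4.97% of all genes. Those were the promoters of Hmgcs1, Msmo1 and Srebf2, 1 of them called. Msmo1, a sterol demethylating oxidase, had 63.62 and 65.36 FPKM in F and 125.35 and 129.28 FPKM in NB2i (log2 fold change 1.03).

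Of 25 genes in the list of glycolysis and glucose transport, 8 were lower (32.0%) and 1 was higher (4.0%), against 17.6% and 10% of all genes. All 25 passed the cut on G. The list also holds genes that encode neither glycolytic enzymes nor glucose transporters, among them Bnip3, Slc16a3 and Pdk1. Bnip3, a mitochondrial protein that hypoxia induces, had 80.91 and 77.8 FPKM in F, 39.6 and 40.03 FPKM in F2i, and 4.09 and 3.51 FPKM in NB2i (log2 fold change −4.34, SE 0.071, adjusted p = 4.8e-22). Slc16a3, which exports lactate, had 50.75 and 50.01 FPKM in F and 5.81 and 5.74 FPKM in NB2i (log2 fold change −3.07). Pdk1, the kinase that holds back pyruvate dehydrogenase, had 45.65 and 46.12 FPKM in F, 8.37 and 8.58 FPKM in F2i, and 6.94 and 6.77 FPKM in NB2i (log2 fold change −2.70). The glucose transporter gene Slc2a1 fell from 268.9 and 264.46 FPKM to 75.31 and 73.22 FPKM, whereas its relative Slc2a3 had 375.41 and 369.67 FPKM in F and 360.8 and 362.89 FPKM in NB2i. Hk1, a hexokinase, was the one that rose, from 21.68 and 21.39 FPKM to 61.12 and 58.44 FPKM (log2 fold change 1.52).

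Of 27 genes of NRF2 and the antioxidant response 5 were higher (18.5%) and 4 were lower (14.8%), where all genes gave 10% and 17.6%. Gss, glutathione synthetase, had 8.27 and 8.25 FPKM in F and 28.1 and 28.38 FPKM in NB2i, whereas Gclc, which makes its substrate, had 32.22 and 32.41 FPKM in F and 14.45 and 14.08 FPKM in NB2i. Sepp1, a selenium carrier, had 8.83 and 10.03 FPKM in F and 0.64 and 0.65 FPKM in NB2i (log2 fold change −3.82). Of 18 metal genes 6 were lower (33.3%) and none was higher. Slc39a14, a zinc and iron importer, had 21.72 and 21 FPKM in F, 2.35 and 2.4 FPKM in F2i, and 0.74 and 0.88 FPKM in NB2i (log2 fold change −4.67, SE 0.079, adjusted p = 6.8e-22). Mt1, the main metallothionein, had 981.33 and 954.69 FPKM in F and 1051.39 and 1049.68 FPKM in NB2i (log2 fold change 0.16).

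Adhesion genes were compared because the matrix under the cells differed. Of 24 integrins, laminins and cadherins, 4 were higher (16.7%) and 9 were lower (37.5%), against 10% and 17.6% of all genes. Above the cut on G, 4 were higher and 5 were lower of 19. Itgb4, a laminin-binding integrin subunit, and Lamb2 and Lamc1, laminin chains, were among the rises. Itga1, a collagen-binding integrin, had 1.2 and 1.03 FPKM in F and 0.03 and 0.02 FPKM in NB2i (log2 fold change −5.22), and Itgb1, the common beta subunit, fell from 69.13 and 70.15 FPKM to 32.17 and 31.74 FPKM. Cdh1, E-cadherin, had 112.38 and 113.5 FPKM in F and 195.58 and 189.02 FPKM in NB2i (log2 fold change 0.81, under the fold threshold). Epcam, another adhesion protein of epithelia, fell from 133.92 and 132.41 FPKM to 37.99 and 36.27 FPKM.

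Lineage markers were counted list by list. Of 16 primitive endoderm genes, 9 were lower (56.2%, against 17.6% of all genes) and 2, Sparc and Lamc1, were higher. Of the 9 that passed the cut on G, 4 were lower, against 11.6% of all genes in that class. Col4a1 and Col4a2, which encode the collagen of basement membranes and are neighbours in the genome, fell together, Col4a1 from 22.26 and 23.48 FPKM to 0.64 and 0.67 FPKM (log2 fold change −5.07, SE 0.08, adjusted p = 2.3e-22). Of 14 neural and mesoderm genes 7 were lower (50%) and none was higher, and Pax6, the leading fall, had only 1.56 and 1.42 FPKM in F. Only 5 of these genes passed the cut on G, and 1 of the 5 was lower. Among all genes under the cut, 37.0% were lower. Of 16 trophoblast and keratin genes, 5 were lower (31.2%) and 3 were higher (18.8%). Gata2, a zinc finger factor of trophoblast and blood, had 2.26 and 2.11 FPKM in F and 10.02 and 8.97 FPKM in NB2i (log2 fold change 2.17, SE 0.093, adjusted p = 5.6e-15). Tead4, the TEAD factor that starts the trophectoderm, rose from 9.94 and 10.84 FPKM to 25.22 and 23.8 FPKM. Eomes had 3.03 and 2.87 FPKM in F and 5.67 and 5.68 FPKM in NB2i, and its log2 fold change of 0.98 was just under the threshold. Hand1, of trophoblast and mesoderm, fell from 3.02 and 3.24 FPKM to 0.08 and 0.03 FPKM.

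Of 20 retinoic acid genes 13 were lower (65%) and 4 were higher (20.0%), against 17.6% and 10% of all genes. Above the cut on G, 5 of 8 were lower and none was higher. Among all genes under the cut, 37.0% were lower and 20.5% higher. Rarg, the main retinoic acid receptor of ESCs, had 45.79 and 45.84 FPKM in F, 47.26 and 46.17 FPKM in G, 19.03 and 20.71 FPKM in F2i, and 3.61 and 3.61 FPKM in NB2i (log2 fold change −3.64). Crabp2, which carries retinoic acid to its receptor, fell from 10.95 and 8.7 FPKM to 0.5 and 0.55 FPKM. The synthesizing enzyme gene Aldh1a3 rose from 0.26 and 0.13 FPKM to 8.15 and 7.55 FPKM, with 0.65 and 0.58 FPKM in F2i (log2 fold change 5.39, SE 0.187, adjusted p = 1.2e-16). Aldh1a2, another of these enzymes, rose as well.

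Genes of the cell cycle and of p53 were called in both directions. Of 21 G1 cyclins and inhibitors, 4 were higher (19.0%) and 5 were lower (23.8%), against 10% and 17.6% of all genes. Ccne1, cyclin E1, fell from 123 and 116.66 FPKM to 22.91 and 25.22 FPKM (log2 fold change −2.27). Cdkn2a, of the INK4 locus, rose from 6.83 and 7.52 FPKM to 34.69 and 36.28 FPKM (log2 fold change 2.35, SE 0.087, adjusted p = 4.2e-16). Of 19 p53 targets 1 was higher (5.26%) and 5 were lower (26.3%). Cdkn1a, the p21 inhibitor, had 63.11 and 63.5 FPKM in F, 129.39 and 129.07 FPKM in F2i, and 137.46 and 137.43 FPKM in NB2i (log2 fold change 1.16), while Pmaip1 and Bbc3, which promote cell death, fell. Of 20 interferon genes 2 were higher, the share of all genes, and 7 were lower (35.0%). Of the 15 that passed the cut on G, 2 were higher and 3 lower. Ifitm1, a membrane protein that is high in pluripotent cells, rose from 91.46 and 86.55 FPKM to 189.59 and 200.66 FPKM. Of 22 Polycomb genes 2 were higher (9.09%) and 3 were lower (13.6%), shares near those of all genes, and Phc1 fell from 220.53 and 223.74 FPKM to 57.56 and 59.05 FPKM (log2 fold change −1.89).

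**Figure D4:**
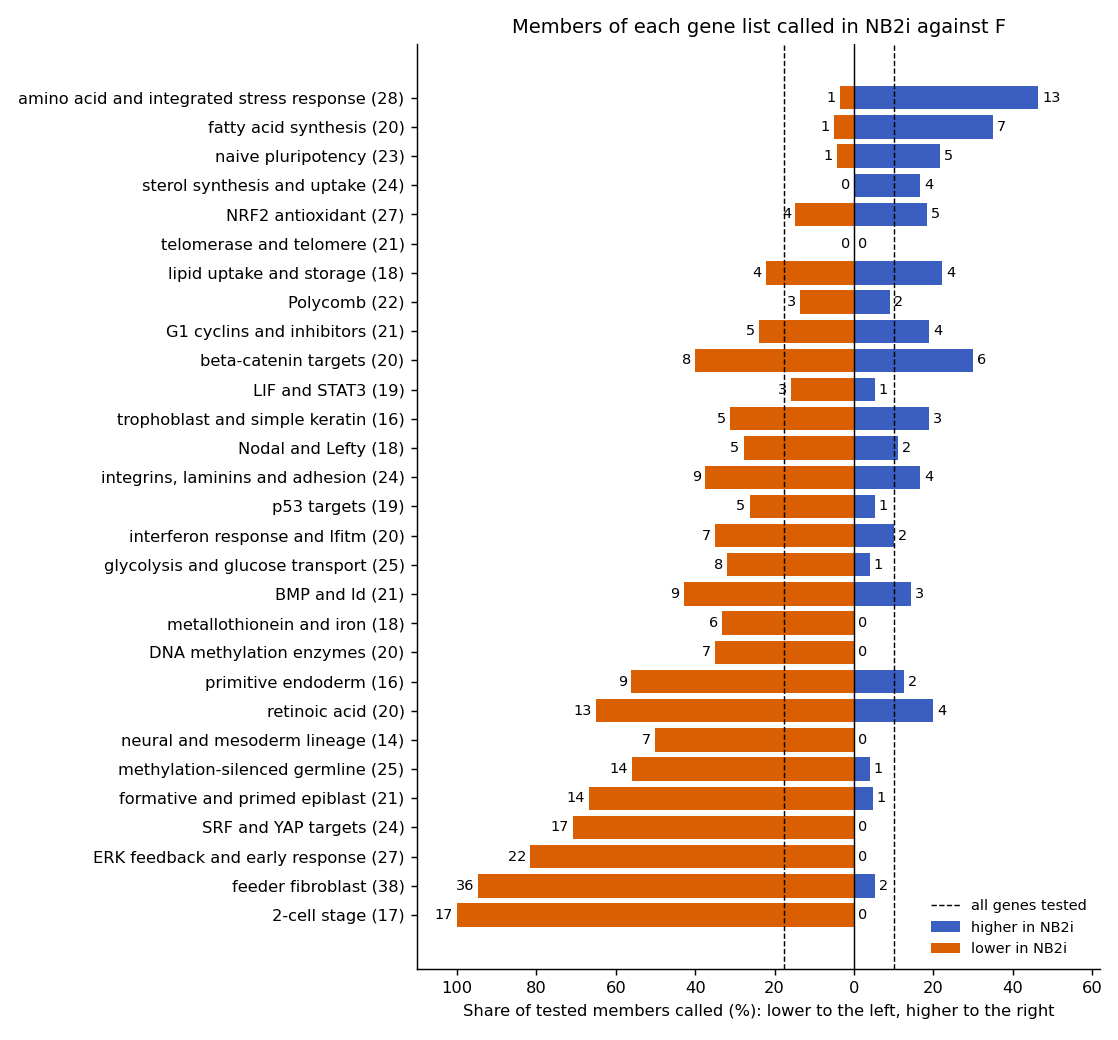
Share of the tested members of each of 29 gene lists (number tested in brackets) called higher in NB2i, to the right, or lower, to the left, with the number called at the end of each bar. Dashed lines mark the shares of all genes tested, 10% higher and 17.6% lower; the amino acid list extends farthest to the right and the lists of the 2-cell stage, fibroblasts and ERK feedback extend farthest to the left.

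The genes with the largest rises were not members of these lists. Among genes with at least 1 FPKM in both G samples, Fetub led. Fetub (Entrez ID 59083, the protease inhibitor fetuin-B, chr16:22918382-22939768) had 2.57 and 2.56 FPKM in F, 3.3 and 3.91 FPKM in G, 4.08 and 3.9 FPKM in F2i, and 44.28 and 40.39 FPKM in NB2i (log2 fold change 4.09, SE 0.095, adjusted p = 1.4e-19). Gdf15, a stress-induced secreted factor of the TGF-beta family, had 2.08 and 1.42 FPKM in F and 21.64 and 21.89 FPKM in NB2i (log2 fold change 3.68). Nkx6-2, a homeobox factor of the nervous system, had 2.52 and 2.07 FPKM in F and 27.22 and 25.15 FPKM in NB2i (log2 fold change 3.62). All of these were far higher in NB2i than in F2i. The others, from Slc30a2, a vesicular zinc transporter, through Pmel, a melanosome protein, Acss1, the mitochondrial acetyl-CoA synthetase, and AA467197 to Slc24a5, an ion exchanger of pigment cells, had log2 fold changes from 3.43 to 3.59.

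Among genes under the cut on G, several were close to silent in serum without 2i. Fxyd2, the gamma subunit of the sodium pump, had 1 count in F and 393 counts in NB2i, where its levels were 16.07 and 15.51 FPKM, a ratio of 401 with an exact 95% interval from 71.6 to 15900. Hoxc12, a posterior HOX gene, had 1 count in F and 210 counts in NB2i, and Kiss1, the kisspeptin precursor, had 1 count in F and 148 counts in NB2i. Trpm1 (Entrez ID 17364, a cation channel of melanocytes and retina, chr7:64153835-64269772) had 0.25 and 0.3 FPKM in F, 0.03 and 0.02 FPKM in G, 4.75 and 4.2 FPKM in F2i, and 29.91 and 29.12 FPKM in NB2i (log2 fold change 6.80, SE 0.116, adjusted p = 7.2e-22). Ppp1r14d, an inhibitor of protein phosphatase 1, had 0.41 and 0.81 FPKM in F and 38.32 and 38.04 FPKM in NB2i (log2 fold change 6.01). F2i had values between F and NB2i for all 5 of these genes.

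Of the 8 largest falls among genes that passed the cut on G, 2 were not raised in F over G as fibroblast genes were, Car4, lower in F than in G, and Nrsn1, close to it. Car4, a membrane-bound carbonic anhydrase, had 21.3 and 19.89 FPKM in F, 36.17 and 35.01 FPKM in G, 0.27 and 0.26 FPKM in F2i, and 0.04 FPKM in both NB2i samples. With 2 counts in NB2i, its ratio was 535 (exact 95% interval from 148 to 4430). Nrsn1, a vesicle protein of neurons, had 9.28 and 9.31 FPKM in F, 8.9 and 8.15 FPKM in G, and 0 and 0.05 FPKM in NB2i, a ratio of 400 (interval from 110 to 3310). The other 6, Cnn1, Bgn, Acta2, Prss23, Thbs1 and Tagln, were higher in F than in G and higher again in F2i, as the fibroblast sums were. What part fibroblast RNA had in any of these falls was not tested. Mgp, the matrix Gla protein, led with Postn, Cav1, Lox and Actg2 the falls among the remaining genes. It had 15.79 and 16.56 FPKM in F, 5.07 and 6.26 FPKM in F2i and no count in NB2i, at least 127-fold lower.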

How the data were processed

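RNA of 8 samples, 2 for each culture, was sequenced on poly-A libraries. Per the labels and methods, the authors mapped reads to mm10 with Bowtie2 and estimated levels with RSEM. The deposited expected counts are estimates (29.8% were not whole) and were rounded, and the deposited FPKM are shown as levels. The strand setting is not given in the sources used here, so overlapping and antisense genes cannot be told apart. Genes that reached 10 counts in 2 or more samples entered a fit over all 8 samples in edgeR 4.0.16 (R 4.3.3), with TMM factors, the quasi-likelihood test and Benjamini-Hochberg adjustment, after a test on simulated data. The biological coefficient of variation was 3.254%, with 4 residual degrees of freedom. Ratios and bounds cover counting error only, and a bound sets 3 counts over a group of 0. Members and lists were chosen with earlier results of these data known. Genes named were a fixed panel, up to 3 called members each way of each list that averaged 1 FPKM or more where higher, and the largest changes of at least 5 FPKM without overlap (8 each way above the cut on G, 5 below it, predicted genes left out). Other members named, such as Etv4, Tpm1, Asns, Fasn and Rarg, were chosen after their values were seen. Alternatives used DESeq2 1.42.0 and limma 3.58.1. Some members of the lists are not reported here by name.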

Additional observations from a re-analysis of the deposited data

How the results depend on the processing

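The alternatives were run for 4 counts of genes, for the calls of the gene lists and for single genes, and none of these changed direction. Family sums, motif counts, ratios and summed levels were not recomputed. Of 64 alternative values for the 4 counts of genes, 59 stayed within 1.5 times of the reported one. The other 5 were lower. With limma on log2(FPKM + 1), 783 genes were higher and 1124 lower in NB2i. With at least 10 counts in every sample, 1368 were lower. With the cut on G at 5 FPKM, 359 were higher and 578 lower above the cut. These settings test fewer genes or damp changes of low genes. Leaving out 1 sample gave 1523 to 1540 higher and 2554 to 2587 lower, or 824 to 836 and 1330 to 1341 above the cut on G. Of the alternatives for single genes, 2304 kept their call and 37 lost it. Of those for list counts, 822 stayed within 1.5 times, 38 were lower and 10 higher, mostly with fewer genes tested or on the log2(FPKM + 1) scale. Leaving out 1 sample moved list counts this far only where at most 2 genes were called. Naive genes lower went from 1 to 2 without F replicate 2, and formative genes higher from 1 to 2 when either F sample was left out or to 3 without NB2i replicate 2. Fibroblast genes higher went from 2 to 1 without NB2i replicate 1, neural genes higher from 0 to 1 without F replicate 2 or NB2i replicate 2, and amino acid genes lower from 1 to 0 without NB2i replicate 2.

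The replicate numbers did not pair the samples (the correlation of deviations of equal numbers between F and NB2i was 0.0096 over 11953 genes). With the replicate block, 1528 genes were higher and 2676 lower, and 797 and 1349 above the cut on G. DESeq2 gave 1407 and 2507. Depth limits genes of a few counts, and 2 samples a group from 1 line limit every p.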

Other observations

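3 lists were chosen after the values had been seen and carry no test of their own. Of all genes tested, 10% were higher and 17.6% lower. Of 20 genes of pigment cells and the MITF family tested, 10 were higher (50%) and 4 lower (20.0%) in NB2i. Mitf, the factor of melanocytes and a relative of the lysosomal regulator TFEB, had 1.16 and 1.3 FPKM in F, 0.85 and 0.71 FPKM in G, 7.93 FPKM in both F2i samples, and 22.7 and 22.34 FPKM in NB2i (log2 fold change 4.15, SE 0.078, adjusted p = 3.8e-21). Gpnmb, a glycoprotein of melanosomes and lysosomes, had 0.85 and 1.14 FPKM in F and 8.59 and 8.4 FPKM in NB2i (log2 fold change 3.13). Tyr, the tyrosinase of pigment synthesis, had 1.08 and 0.74 FPKM in F and 0.73 and 0.9 FPKM in NB2i, and Sox10, which drives Mitf in melanocytes, was lower.

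Of 42 lysosome genes tested, 18 were higher (42.9%) and 2 lower (4.76%), with a median log2 fold change of 0.82. Lamp1, of the lysosomal membrane, had 120.58 and 125.4 FPKM in F and 255.99 and 258.11 FPKM in NB2i (log2 fold change 1.11). Of 21 hypoxia response genes, 9 were lower (42.9%) and none was higher. Egln3, a prolyl hydroxylase, had 31.09 and 32.91 FPKM in F and 5.73 and 5.68 FPKM in NB2i (log2 fold change −2.44), whereas Vegfa had 20.43 and 20.4 FPKM in F and 31.23 and 33.03 FPKM in NB2i (log2 fold change 0.68).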
